A study of Mus musculus with 12 samples.

Results

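The protein-coding genes of the cytosolic ribosome were followed in murine melanocytic cells grown with or without SX-682, an antagonist of the chemokine receptors CXCR1 and CXCR2. Members were the protein-coding rows whose symbol was Rpl or Rps followed by a number (with an optional a, x, y or l and a further digit), Rpsa, or Rplp0 to Rplp2. The S6 kinase genes did not match. This gave 83 of the 34513 genes in the count table, 51 of them coding for large-subunit and 32 for small-subunit proteins. RNA was sequenced in 12 libraries from 3 lines, with 2 libraries in each of 6 groups: MelanA, a non-tumorigenic melanocyte line, the melanoma line B16F0, and the melanoma line B16F10, each without treatment and with SX-682. The dose, the time and any vehicle for these cultures are not given in the sources used here.

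Each line is a single cell line, so a difference between lines is a difference between these cultures and not between kinds of melanocyte. Libraries held 48876982 to 85322092 counts. All 9 melanocytic markers were above 1 CPM (counts scaled to library totals adjusted by the trimmed mean of M-values, TMM) in every B16 library. In MelanA 7 of the 9 were, while Tyr (tyrosinase) stood at 0.253 to 0.892 CPM and Oca2 at 0.0932 to 0.22 CPM. No keratinocyte marker passed 1 CPM in the B16 libraries. In MelanA Krt10 stood at 2.27 to 3.28 CPM, and Trp63 at 2.54 and 2.06 CPM in untreated and 0.757 and 0.693 in treated libraries. Summed fibroblast markers ranged from 93.6 to 116 CPM in MelanA and from 8.43 to 16.8 CPM in the B16 lines. Col1a1 (45.7 to 47.1 CPM) and Col3a1 (40.5 to 54.8) made up most of the MelanA sum. Col1a2 went the other way, at 0.2 to 0.914 CPM in MelanA and 1.64 to 5.79 in the B16 lines. Pdgfra stood at 3.62 to 4.8 CPM in MelanA, 5.6 to 8.38 in B16F0 and 1.24 to 1.8 in B16F10. Vwf of the endothelial list stood at 16.1 to 24.8 CPM in MelanA, 5.25 to 7.7 in B16F0 and 53.7 to 61.7 in B16F10. The rest of that list was low in all libraries, with Pecam1 at 0 to 1.68 CPM, Cdh5 at 0 to 0.463 and Kdr at 0 to 0.185. The summed melanocytic markers stood at 19333 and 19428 CPM in untreated and 16245 and 16452 in treated B16F0, and at 25143 and 25162 and then 15261 and 15514 in B16F10. In MelanA the sums of all libraries lay between 1351 and 1381 CPM, but single markers moved both ways. With SX-682 Sox10 went from 655 and 685 to 744 and 753 CPM and Tyrp1 from 105 and 108 to 143 and 143. Dct went from 358 and 351 to 274 and 268 CPM, and Mitf from 103 and 101 to 78 and 80.5. Cd68, a lysosomal protein of macrophages and other cells, stood at 15.9 and 16.1 CPM in untreated and 43.9 and 45.3 in treated MelanA. Csf1r of the same immune list stood at 2 to 2.44 CPM in MelanA and at 0.0149 to 0.137 in the B16 lines. Cd3e, Itgam and Ptprc were near 0. The part of these markers in the values of the ribosomal protein genes was not tested.

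A ribosome is built from a large subunit, which joins amino acids, and a small subunit, which reads the messenger RNA. Most of its proteins are needed in equal numbers, with more copies of the stalk proteins Rplp1 and Rplp2, and cells adjust their output in large part at translation, since ribosomal protein messengers start with a run of pyrimidines (the TOP motif) through which mTOR signalling controls their use. A few members have a paralogue that can take their place or has a separate role, such as Rpl22l1 for Rpl22, Rps27l for Rps27 and Rpl7l1 for Rpl7.

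The pyrimidine run is the sequence feature these genes are known for, so the 30 bases around the start annotated by RefSeq are shown for members to which the results return, with 15 bases before the start and the longest unbroken run of C and T in capitals (GRCm38.p6, 5′ to 3′).
Rps6, chr4:86857353-86857382, minus strand: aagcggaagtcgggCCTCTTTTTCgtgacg
Rpl7a, chr2:26910792-26910821, plus strand: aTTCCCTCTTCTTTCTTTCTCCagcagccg
Rps18, chr17:33955651-33955680, minus strand: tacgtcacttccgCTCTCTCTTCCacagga
Rplp2, chr7:141447636-141447665, plus strand: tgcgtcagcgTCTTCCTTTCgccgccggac
Rps27, chr3:90213634-90213663, minus strand: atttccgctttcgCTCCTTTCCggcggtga
Rps27l, chr9:66946071-66946100, plus strand: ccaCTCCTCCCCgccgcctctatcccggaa
Rpl22l1, chr3:28805493-28805522, plus strand: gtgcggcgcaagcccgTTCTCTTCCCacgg
Rpl22, chr4:152325711-152325740, plus strand: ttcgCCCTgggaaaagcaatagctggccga
Rpl7l1, chr17:46782642-46782671, minus strand: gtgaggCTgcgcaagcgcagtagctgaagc
Rps10, chr17:27635230-27635259, minus strand: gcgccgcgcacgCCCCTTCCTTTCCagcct
Rpl24, chr16:55966260-55966289, plus strand: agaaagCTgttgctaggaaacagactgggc
Rpl10, chrX:74270801-74270830, plus strand: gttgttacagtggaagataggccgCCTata
Rpl36a, chrX:134585639-134585668, plus strand: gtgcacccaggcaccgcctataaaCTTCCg
Of the 83 members 63 had a promoter in the RefSeq table, and 60 of these were also abundant enough to be tested. A run of at least 8 pyrimidines lay in this window in 25 of the 60 tested members (41.7%) and in 3943 of the 32851 promoters of all genes. The annotated start can lie some bases away from the base at which transcription begins, and the median distance between it and the first base of the gene in the count table was 30 bases, so a window without a run does not show that the messenger lacks one. Rps6, Rpl7a, Rps18 and Rplp2 carried runs of 10, 21, 11 and 10 pyrimidines, and Rps27 and its paralogue Rps27l each carried 9. Rpl22l1 had a run of 10 where Rpl22 had 4, and Rpl7l1 had 2.

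For Rpl7l1 and the pairs of Rpl22 and Rps27 with their paralogues, to which the results return, 100 bases are shown that end just before the gene or, for Rpl22, just before its RefSeq start, which lies upstream of the gene (GRCm38.p6, read on the strand of the gene, 5′ to 3′). Capitals mark a match on either strand to GGGCGG (the GC box), CCGGAAGT (an ETS-type site), AAGATGGC (a YY1-type site) or CACGTG (an E box).
Rpl22, chr4:152325626-152325725, plus strand: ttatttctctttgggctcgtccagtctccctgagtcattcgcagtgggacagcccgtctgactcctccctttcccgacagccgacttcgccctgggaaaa
Rpl22l1, chr3:28805336-28805435, plus strand: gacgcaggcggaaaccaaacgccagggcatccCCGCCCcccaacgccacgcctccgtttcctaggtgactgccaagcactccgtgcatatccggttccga
Rps27, chr3:90213652-90213751, minus strand: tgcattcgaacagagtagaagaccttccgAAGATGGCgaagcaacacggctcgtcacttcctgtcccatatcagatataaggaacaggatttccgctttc
Rps27l, chr9:66945986-66946085, plus strand: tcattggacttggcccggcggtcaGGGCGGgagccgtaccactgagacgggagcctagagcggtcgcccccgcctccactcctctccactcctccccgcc
Rpl7l1, chr17:46782673-46782772, minus strand: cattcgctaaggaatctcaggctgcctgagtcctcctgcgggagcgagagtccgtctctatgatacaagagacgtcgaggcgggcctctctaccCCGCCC
Rps27 carried the YY1-type letters 71 bases before its start, while Rps27l carried a GC box 76 bases before it. Rpl22l1 carried a GC box on the opposite strand, as did Rpl7l1, and Rpl22 had none of the 4 motifs in this stretch. Over 300 bases around the start, CCGGAAGT occurred in 12 of the 60 tested members (20.0%) and in 3.89% of all promoters, AAGATGGC in 5 (8.33%, against 2.75%), GGGCGG in 37 (61.7%, against 35.7%) and CACGTG in 5 (8.33%, against 7.15%). These are matches of letters, and no binding was measured.

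The share of all counts that fell on the 83 genes differed between lines and was higher with SX-682 in each of them, a description with no test. In MelanA it was 3.784% and 3.812% in the untreated libraries and 4.72% and 4.679% with SX-682. In B16F0 it went from 5.755% and 5.752% to 6.453% and 6.739%, and in B16F10 from 5.326% and 5.301% to 6.871% and 6.941%. In no line did untreated and treated libraries overlap, and the ratio of the group means was 1.24 in MelanA, 1.15 in B16F0 and 1.3 in B16F10. Large- and small-subunit genes moved together: in B16F10 the large-subunit share was 3.038% ± 0.0092 (SD, n = 2) without and 3.946% ± 0.026 with SX-682, and the small-subunit share 2.276% ± 0.0092 and 2.96% ± 0.023. The share of mitochondrial genes was also higher with SX-682, with group means of 0.9622% and 1.152% in MelanA, 0.7672% and 0.855% in B16F0, and 1.005% and 1.239% in B16F10. Ribosomal RNA took 0.1834% and 0.198% in MelanA, where the libraries overlapped, 0.08464% and 0.116% in B16F0, and 0.107% and 0.1973% in B16F10. With both left out of the total the member share was 3.837% without and 4.758% with SX-682 in MelanA, 5.801% and 6.657% in B16F0, and 5.371% and 6.998% in B16F10. The share is relative to the other RNA in each library. Counts of this kind cannot tell more ribosomal protein RNA per cell from less of other RNA, nor fewer cells of a type from less RNA per cell.

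**Figure D1:**
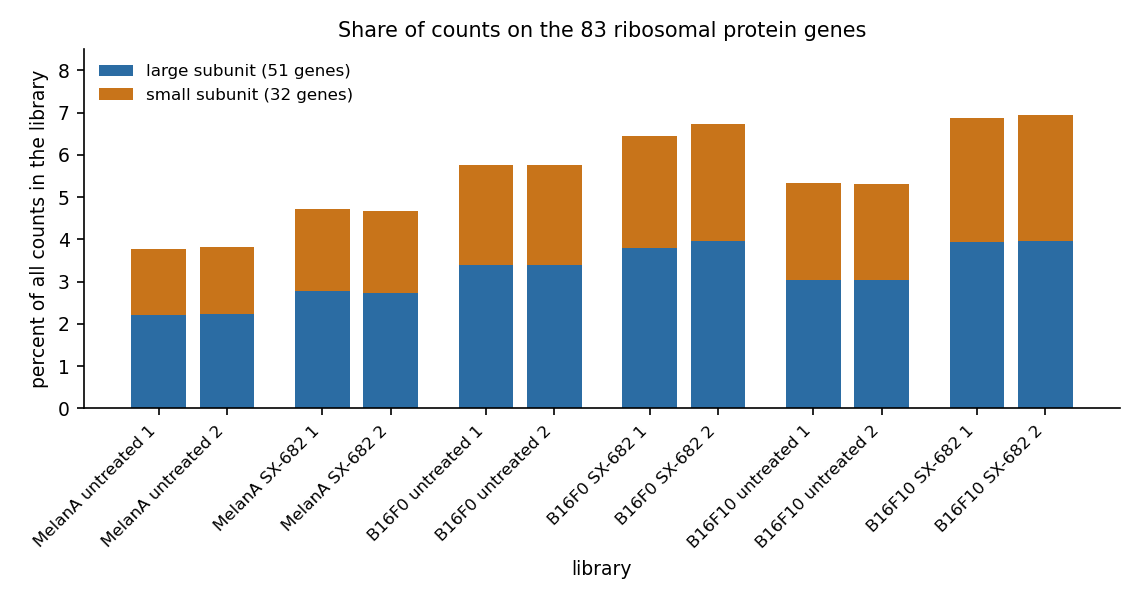
Percent of all counts in each of the 12 libraries that fell on large-subunit (lower bar part, 51 genes) and small-subunit genes (upper part, 32 genes). Every SX-682 library lies above both untreated libraries of its line, and the MelanA libraries, from 3.784% to 4.72%, lie below all B16 libraries.

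Of the 83 members, 80 passed the filter on low counts. The 3 that did not were paralogues known from other tissues: Rpl3l, the striated-muscle counterpart of Rpl3, with 0 to 6 counts per library, Rpl10l, the testis counterpart of Rpl10, with 0 to 2, and Rpl39l, the testis counterpart of Rpl39, also with 0 to 2. Their canonical partners were abundant, from 633.7 to 1655 CPM for Rpl3, 325.2 to 882.7 for Rpl10 and 187.1 to 363.8 for Rpl39. A level of up to 0.033 to 0.0623 CPM, or 3 counts per library, is within what a count of 0 allows.

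Among the tested members the levels per length of most ranged from 366 to 2695 CPM per kb, and those of a few were far lower. Divided by the length of the principal transcript, 74 of the 80 lay at or above 366 CPM per kb as a mean over the 12 libraries. The highest was Rplp1 of the P stalk with 2695 CPM per kb, before Rpl32 with 2287, Rps14 with 2254 and Rps2 with 1896. The 6 lowest were Rpl22l1 with 130 CPM per kb, Rps20 with 110.6, Rpl7l1 with 57.93, Rpl13a with 31.59, Rps10 with 3.278 and Rpl24 with 0.5037. The transcript taken for Rps20 had 3706 bases, the longest of any member, and ranks of single genes depend on which transcript is taken.

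Rpl24, Rps10 and Rpl13a are ordinary subunits of every ribosome, and each overlaps another gene on its own strand. Rpl24 (chr16:55966275-55971435, plus strand, 6 exons) shares exons with Gm28037, Rps10 (chr17:27630418-27636669, minus strand, 6 exons) shares exons with RPS10-NUDT3, and Rpl13a (chr7:45125558-45128761, minus strand, 8 exons) with Gm45713. Of the 50-base words of their principal transcripts, 69.4%, 68.9% and 57.4% also occurred in that overlapping gene. The same share was at most 4.4% in each other member. Words were also shared with genes elsewhere. This held for 77.7% of the words of Rpl24 and 63.2% of those of Rps10, and for a smaller share in Rpl13a. It held for 98.6% of the words of Rps27, whose level was 300.5 to 437.5 CPM. The part of either kind of sharing in the low levels was not tested. How the authors' counting treated reads that fit 2 genes is not given in the sources used here, and its part in these levels was not tested. Rows of the overlapping genes were not used here.

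**Figure D2:**
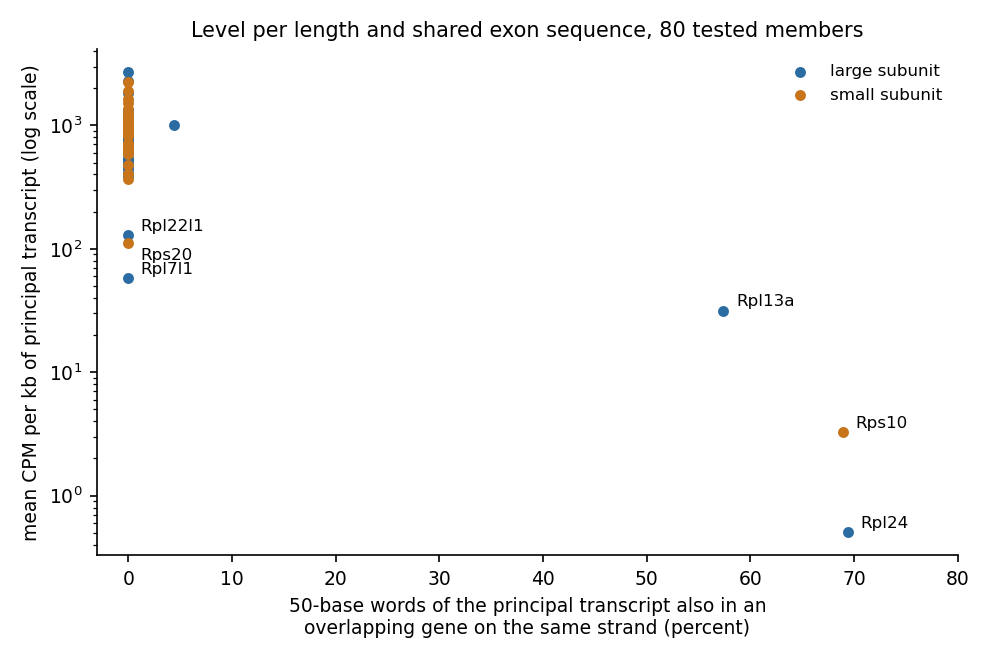
Mean level per kb of principal transcript (vertical, log scale) against the percent of the transcript's 50-base words that also occur in an overlapping gene on the same strand (horizontal) for the 80 tested members. Rpl13a, Rps10 and Rpl24 are the only points beyond 5% and also the 3 lowest.

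With SX-682 nearly all ribosomal protein genes rose in all 3 lines, each by a small amount. In MelanA 76 of the 80 tested members were higher and 2 lower at an adjusted p under 0.05 (edgeR quasi-likelihood test, Benjamini-Hochberg over 18338 genes), where 48.2% of all genes were called, 23.4% higher and 24.7% lower. In B16F0 76 were higher and 1 lower (50.1% of all genes called, 25.1% higher), and in B16F10 76 were higher and 2 lower (50.8% called, 25.5% higher). The median log2 fold change of the members was 0.28 in MelanA, a rise of 21%, 0.23 in B16F0 and 0.37 in B16F10, a rise of 29.5%, with the median over all tested genes at 0 in each line. The middle 50% of members lay between 0.22 and 0.34 in MelanA, 0.17 and 0.28 in B16F0 and 0.29 and 0.43 in B16F10. Among 2173 other genes with a mean above 100 CPM the medians were -0.07, -0.02 and -0.07.

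Higher in all 3 lines were 74 of the 80 members, 44 of the large and 30 of the small subunit, where 11.3% of all tested genes met the same condition. The 6 others were Rpl7l1, Rps27l, Rps10, Rpl24, Rpl7a and Rpl27. Untreated and treated libraries did not overlap in 76 members in MelanA, 77 in B16F0 and 76 in B16F10 in the direction of a rise, against 36.0%, 35.4% and 35.2% of all tested genes. By subunit the medians were alike: 0.28 for the large and 0.27 for the small subunit in MelanA, 0.23 and 0.23 in B16F0, and 0.37 and 0.38 in B16F10. With a fold change of at least 0.2 on the log2 scale required as well, 46 members were higher in B16F0 in place of 76. Neither the length of the principal transcript nor the share of its words found in other genes followed the response over the 80 members (Spearman's rho between -0.1 and 0.03 in the 3 lines, given as a description, since the members share libraries).

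**Figure D3:**
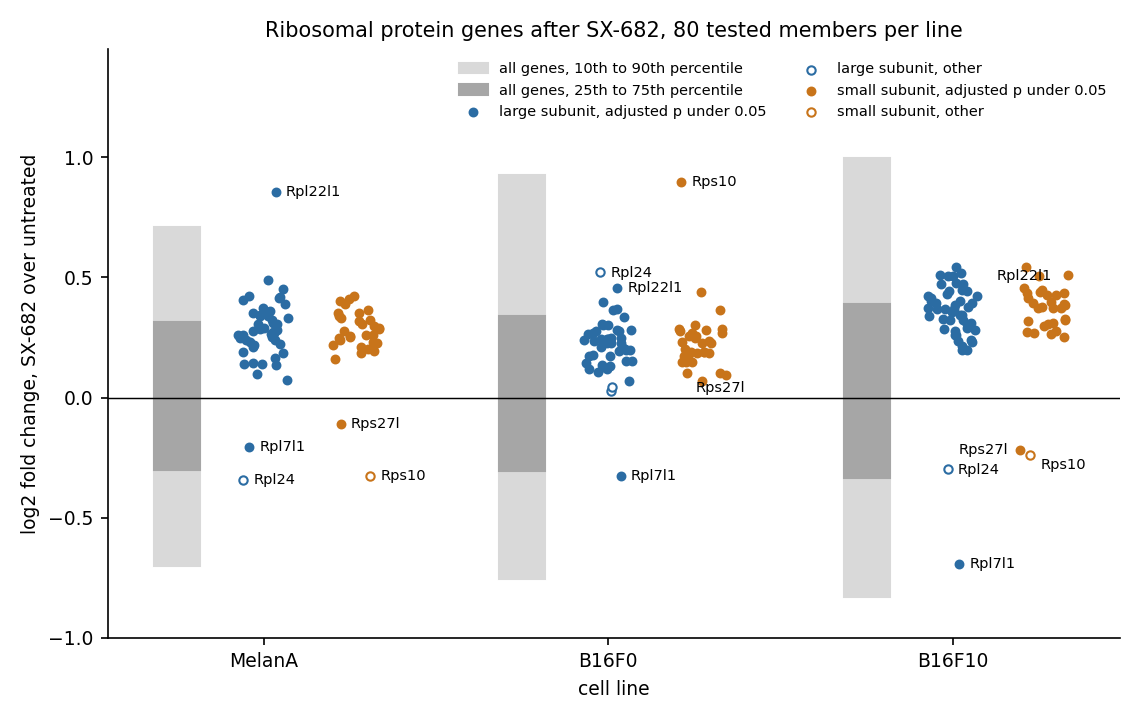
Log2 fold change with SX-682 for the 80 tested members in each line, by subunit, beside the spread of all tested genes (grey bars). Filled points passed an adjusted p of 0.05. The members form a tight group above 0 at a median of 0.28, 0.23 and 0.37, and the labelled members fall outside it in at least 1 line.

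The largest called rises were spread over both subunits. In MelanA they were Rpl22l1 (log2 fold change 0.86), Rpl12 at the base of the P stalk (0.49), Rpl32 (0.45) and Rps18 of the small-subunit head (0.42). In B16F0 Rps10, Rpl22l1, Rps20 and Rpl3 led with 0.90, 0.46, 0.44 and 0.40. Of these Rps10, at 2.63 to 5.152 CPM there, had too few counts to be read with the others, as described below. In B16F10 Rpl17, Rps14 and Rpl3 led with 0.55, 0.54 and 0.52. Rpl3, an early-assembling protein near the peptidyl transferase centre, stood at 637.3 and 633.7 CPM in untreated MelanA and 843.8 and 838.2 with SX-682. In B16F0 it went from 1260 and 1237 to 1631 and 1655 CPM, and in B16F10 from 1097 and 1092 to 1556 and 1575. Its treated libraries lay above the untreated ones in every line, by 0.40 ± 0.019 (SE, adjusted p = 3.35e-17 by edgeR), 0.40 ± 0.019 and 0.52 ± 0.019 on the log2 scale. Rpl17, which lines the exit tunnel, rose from 652.9 and 652.4 to 935.9 and 969.4 CPM in B16F10.

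The P stalk, through which the elongation factors reach the ribosome, rose as a whole. Rplp0, its anchor, went from 1134 and 1157 to 1528 and 1531 CPM in MelanA, from 1555 and 1518 to 1849 and 1881 in B16F0, and from 1705 and 1689 to 2208 and 2201 in B16F10. Its libraries were apart in each line, with rises of 0.42, 0.28 and 0.38 (log2). Its partners Rplp1 and Rplp2 rose by 0.41 and 0.37, 0.30 and 0.23, and 0.37 and 0.42 in the same order of lines. For Rplp2 in B16F0 1 library decided much of the value: the rise of 0.23 was 0.15 without the second SX-682 library. For Rplp1 in B16F10 the rise of 0.37 was 0.19 when a trend of the log ratios with gene length was taken out.

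Rpl5 and Rpl11, which together with 5S ribosomal RNA bind MDM2 when assembly is disturbed, both rose but by different amounts. Rpl5 went from 499.7 and 492.6 to 612.6 and 614.3 CPM in MelanA, from 778.5 and 779 to 907.9 and 941.9 in B16F0, and from 829.3 and 852.6 to 1098 and 1074 in B16F10. Its treated and untreated libraries were apart in each line, with log2 fold changes of 0.31, 0.25 and 0.37. Rpl11 changed by 0.10 in MelanA, 0.07 in B16F0 and 0.26 in B16F10, among the smallest rises of the members. In B16F0 the call for Rpl11 (0.07 ± 0.022, adjusted p = 0.00707 by edgeR) was lost without the second untreated library (0.05, adjusted p = 0.155) or the second SX-682 library (0.05, adjusted p = 0.061).

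Rps6, the substrate of the S6 kinases, went from 398.8 and 388.7 to 477.3 and 458.4 CPM in MelanA, from 588.9 and 581 to 708.5 and 734.2 in B16F0, and from 632 and 620.2 to 805.6 and 817.6 in B16F10, rises of 0.25, 0.30 and 0.37 on the log2 scale with no overlap. Rpsa, which is also known as a laminin-binding protein, rose by 0.32, 0.20 and 0.31, and Rps2 by 0.30, 0.15 and 0.31.

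Rpl7a and Rpl27 of the large subunit did not pass the test in B16F0. Rpl7a stood at 1166 and 1180 CPM without and at 1134 and 1257 with SX-682, so the groups overlapped, and the 95% interval of its log2 fold change ran from -0.03 to 0.08. For Rpl27 the interval was -0.005 to 0.09. Both rose in MelanA (0.15 and 0.16) and in B16F10 (0.20 and 0.21).

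Rpl22l1, Rpl7l1 and Rps27l each departed from the group in at least 1 line. Rpl22l1 (chr3:28805436-28807424, plus strand, 4 exons) stood at 22.5 and 23.26 CPM in untreated MelanA and at 42.48 and 40.36 with SX-682. In B16F0 it went from 71.56 and 70.68 to 95.35 and 100.2 CPM, and in B16F10 from 81.16 and 84.14 to 113.3 and 116. It was higher with SX-682 in every line with no overlap, by 0.86 ± 0.042 (SE, adjusted p = 1.67e-16 by edgeR), 0.46 ± 0.037 and 0.47 ± 0.037 on the log2 scale. The rise in MelanA, of 80.9%, was the largest of any member there. Its partner Rpl22, whose protein is known to hold down Rpl22l1, went from 288.5 and 296.3 to 348.4 and 341.7 CPM in MelanA, a rise of 0.24, and rose by 0.28 in B16F0 and 0.44 in B16F10. The values of paralogue and partner were far apart in MelanA and close in B16F10, and the difference between the genes was not tested.

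Rpl7l1 (chr17:46773907-46782672, minus strand, 7 exons), a relative of Rpl7 linked to large-subunit assembly, was the only tested member that fell in all 3 lines, where 11.7% of all genes did. It went from 131.1 and 129.9 to 112.2 and 114.2 CPM in MelanA, from 187.1 and 184.4 to 149 and 147 in B16F0, and from 200.3 and 205.4 to 125.6 and 125.5 in B16F10. The libraries did not overlap in any line, and the falls were -0.21 ± 0.028, -0.33 ± 0.027 and -0.69 ± 0.028 (SE, adjusted p = 7.08e-19 by edgeR in B16F10). Against the median member of each line these were -0.48, -0.56 and -1.07. Rpl7 itself rose by 0.26, 0.18 and 0.20. Only 9.2% of the words of Rpl7l1 occurred in a gene elsewhere, so most of its transcript could be told from other genes. This held less for other named members, with 57.3% for Rpl22l1, 85.6% for Rpl3, 92.1% for Rpl10 and 85.5% for Rpl36a. For Rps27l the share was 22.4%. The part of this sharing in the values of these genes was not tested.

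Rps27l (chr9:66946086-66949516, plus strand, 4 exons), a p53-inducible paralogue of Rps27, changed little and not in 1 direction. It stood at 76.72 and 79.94 CPM in untreated MelanA and 73.9 and 71.49 with SX-682, at 211.8 and 213.3 and then 222.8 and 233.5 in B16F0, and at 262.8 and 280 and then 233.9 and 232.9 in B16F10. The log2 fold changes were -0.11 ± 0.034 (adjusted p = 0.00836 by edgeR), 0.10 ± 0.031 (adjusted p = 0.00666 by edgeR) and -0.22 ± 0.031 (adjusted p = 4.23e-07 by edgeR). The calls in MelanA and B16F0 were not stable. In MelanA the value was -0.07 without the second untreated library and -0.08 without the second SX-682 library (adjusted p = 0.152 by edgeR), and in B16F0 it was 0.07 without the second SX-682 library (adjusted p = 0.101 by edgeR) and 0.08 with a length trend taken out (adjusted p = 0.084 by edgeR), none of them under the threshold of 0.05. Rps27 rose in each line, from 304 and 300.5 to 381.3 and 379.4 CPM in MelanA and from 317.9 and 319 to 424.9 and 437.5 in B16F10.

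**Figure D4:**
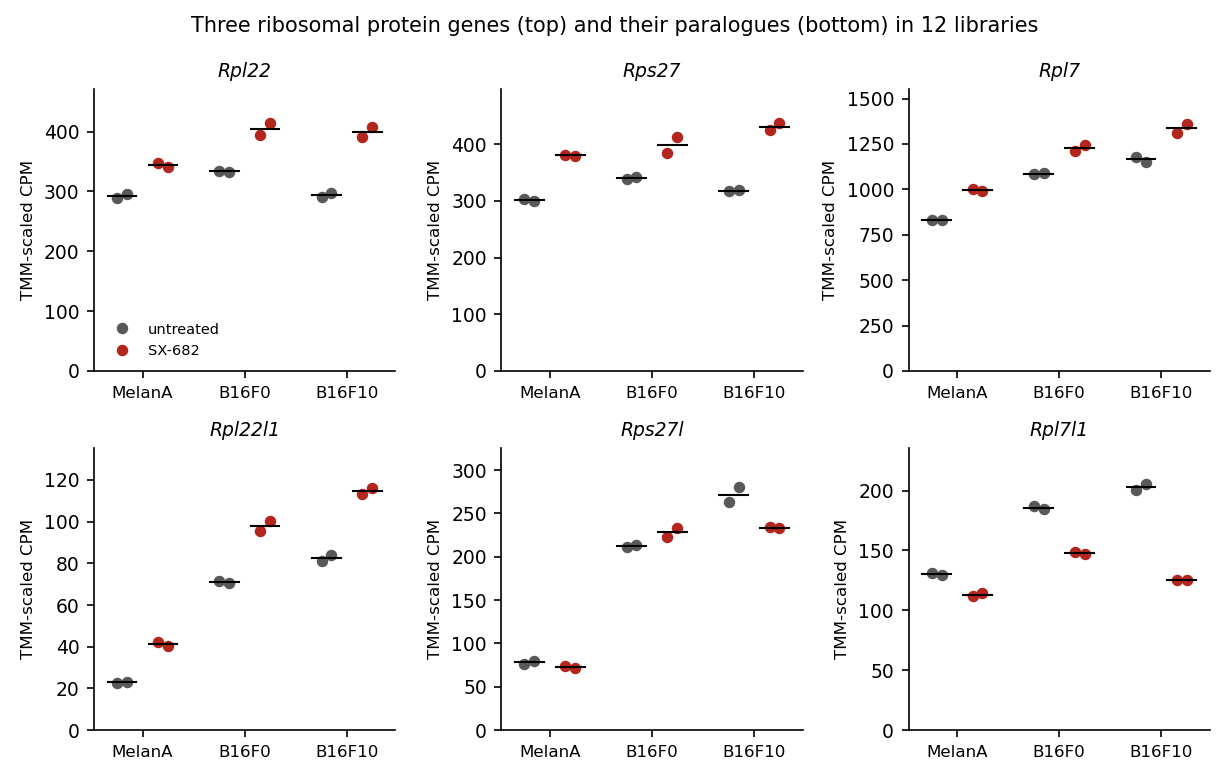
TMM-scaled CPM in each library (points, axis from 0) and group means (bars) for Rpl22, Rps27 and Rpl7 above and Rpl22l1, Rps27l and Rpl7l1 below. The upper genes rise with SX-682 in every line, while Rpl7l1 falls in every line, from 200.3 and 205.4 to 125.6 and 125.5 CPM in B16F10.

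Rps10 and Rpl24 had too few counts to be read with the others. Rps10 had 61 to 336 counts per library and stood at 2.63 and 2.87 CPM in untreated B16F0 and 5.1 and 5.152 with SX-682, a called rise of 0.90 ± 0.19 (adjusted p = 0.000237 by edgeR). In MelanA and B16F10 it had -0.33 and -0.24 and did not pass. The 3 rows named as Rps10 pseudogenes held more counts than Rps10 itself, 389 to 750 per library, and with these added the rise in B16F0 was 0.37. Rpl24 had 13 to 34 counts per library and passed in no comparison, with 95% intervals of -1.30 to 0.62 in MelanA, -0.37 to 1.41 in B16F0 and -1.25 to 0.66 in B16F10. Rpl13a, with 1854 to 2716 counts, rose by 0.22, 0.34 and 0.28. Without Rpl24 and Rps10, a count added after the data were seen, 76, 75 and 76 of 78 members were higher in the 3 lines.

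Whether the rise depended on the line was tested as a difference of responses. Between B16F10 and B16F0 the response was larger in B16F10 for 60 of the 80 members and smaller for 3 (edgeR, adjusted p under 0.05), where 30.3% of all genes were called, 15.3% higher, and the median difference of the members was 0.14. When a trend with gene length was taken out, the count of 60 fell to 26 and the median to 0.08. Rps14, which lies near the messenger RNA exit of the small subunit, rose from 1351 and 1349 to 1965 and 1966 CPM in B16F10 and from 1241 and 1174 to 1449 and 1419 in B16F0, a difference of responses of 0.29 ± 0.047 (adjusted p = 1.41e-05 by edgeR). Rpl17 and Rpl41, the shortest of the ribosomal proteins, differed by 0.28 and 0.28. The 3 members with a smaller response in B16F10 were Rps10, Rpl7l1 and Rps27l, with -1.14, -0.36 and -0.32. With its pseudogene rows added Rps10 had -0.06 and was no longer called (adjusted p = 0.801 by edgeR).

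Between the mean of the B16 lines and MelanA the response differed in fewer members, 16 higher and 13 lower in B16 (35.8% of all genes called, 18.7% higher and 17.1% lower), and the median difference was 0.01. The split depended on the processing: it was 9 higher and 18 lower with library totals as the only scaling, 13 and 13 with DESeq2's size factors in edgeR and 9 and 14 with DESeq2. Rpl22l1 rose less in B16 by 0.39 ± 0.050 (adjusted p = 1.86e-07 by edgeR), and Rpl7l1 fell more, by -0.30. Rpl23a, Rpl21 and Rpl30 rose more in B16, by 0.18, 0.16 and 0.13, and Rpl10 rose less, by -0.14. Between B16F10 and B16F0 the responses of Rpl22l1 differed by 0.01 (95% interval -0.09 to 0.12).

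The comparisons of untreated lines use the same untreated libraries as the responses, so they are not independent of them. Before treatment the ribosomal protein genes stood higher in the melanoma lines than in MelanA. In the mean of untreated B16F0 and B16F10 against untreated MelanA, 79 of the 80 members were higher and none lower, where 76.1% of all genes were called, 33.7% higher and 42.4% lower. DESeq2 had 78 higher and 0 lower. In edgeR the lowest member value was 0.08, so none could be called lower at any threshold. The median was 0.64 on the log2 scale, or 56% higher, with the median over all tested genes at -0.09, and 75 members did not overlap between the lines (28.4% of all genes did so in that direction). With library totals as the only scaling the median of all genes moved to -0.23 and that of the members to 0.50. A change of scaling moves all genes by about the same amount, so it cannot test the gap between members and all genes. The member that did not pass was Rpl24.

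The paralogues Rpl22l1 and Rps27l had the largest differences, while Rpl7l1 had group means of 130.5 CPM in untreated MelanA, 185.7 in B16F0 and 202.8 in B16F10. Rpl22l1 was 1.74 ± 0.037 higher in B16 (SE, adjusted p = 6.84e-27 by edgeR) and Rps27l 1.62 ± 0.029 higher, while their partners Rpl22 and Rps27 were 0.10 and 0.12 higher, differences that turned to -0.04 and -0.02 with library totals alone. Rpl10, which forms part of the tRNA-binding core and joins the large subunit last, followed with 1.17, from 325.2 and 342.8 CPM in MelanA to 778.3 and 801.3 in B16F0 and 723.8 and 702.3 in B16F10. Rpl36 came next with 1.16, at 197.3 and 207.5 CPM in MelanA and between 379.9 and 534.6 in the untreated B16 libraries. Rpsa was 0.90 higher, Rpl3 0.88 and Rps2 0.85, whereas Rpl23a, at 386 and 362.3 CPM in MelanA and 382.9 to 408.9 in B16, differed by 0.08.

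The melanoma lines differed from each other in both directions. In untreated B16F10 against untreated B16F0, 31 members were higher and 39 lower, 62.0% of all genes were called (30.8% higher, 31.2% lower), and the median member was at -0.06. The libraries of the lines did not overlap in 33 members that were higher and 42 that were lower, against 37.4% and 39.7% of all genes. The split was 22 higher and 46 lower with library totals alone and 36 and 27 with a length trend taken out, when the median became 0.05, so no direction can be given for the group. Single genes stood far out. Rpl36a was at 286.1 and 290.5 CPM in B16F10 and 152 and 149.6 in B16F0, with MelanA at 150.2 and 150.2, so that B16F10 alone was high, by 0.93 ± 0.028 (SE, adjusted p = 1.36e-22 by edgeR). Rpl37a was 0.45, Rps27l 0.35 and Rpl17 0.35 higher in B16F10. Rpl13, Rps29 and the sparsely counted Rps10 were lower by -0.56, -0.50 and -0.98, and Rps10 was at -0.33 with its pseudogene rows added.

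**Figure D5:**
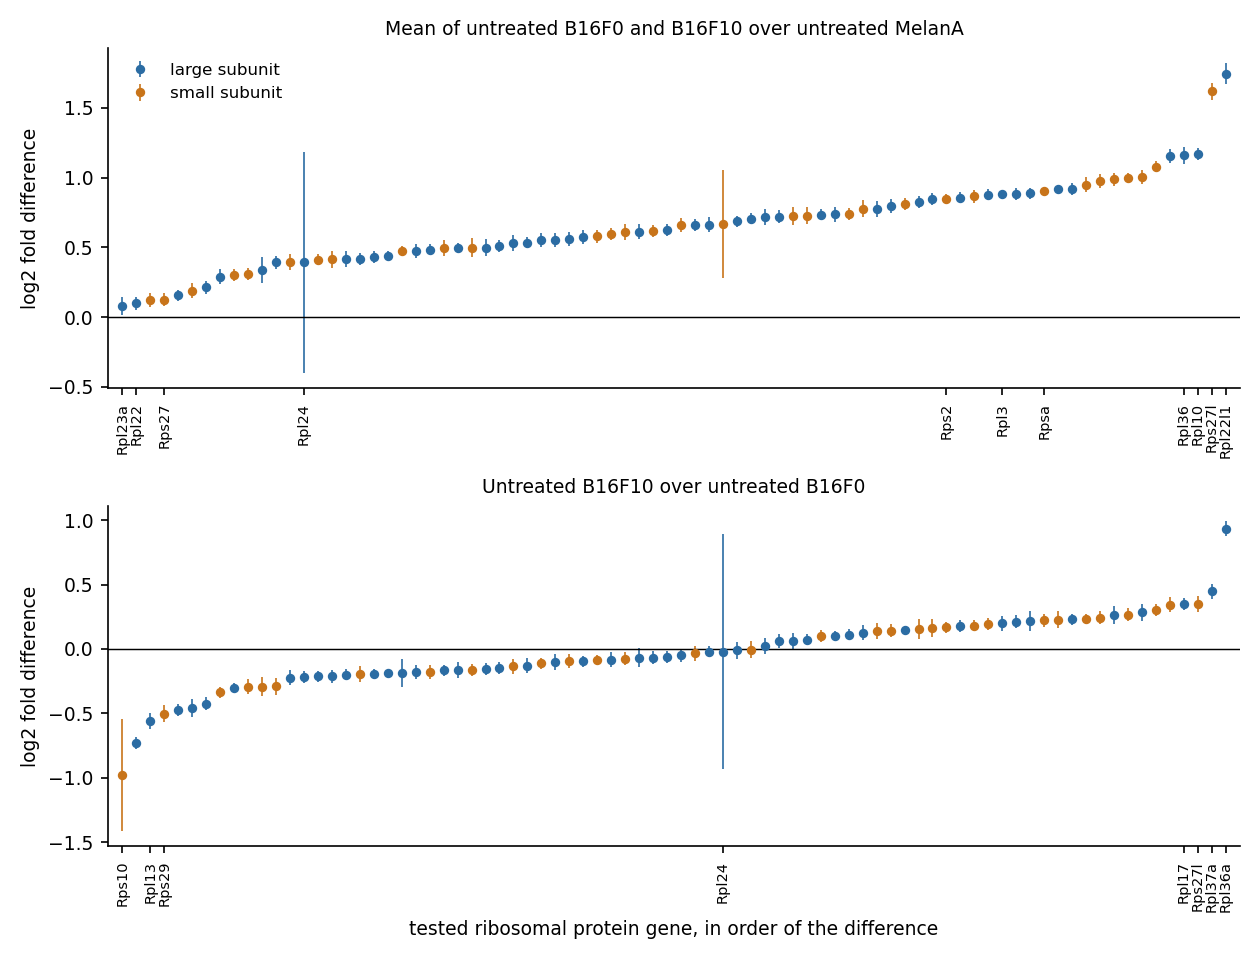
Log2 difference of each tested member between untreated lines with its 95% interval, in order of size: the B16 lines over MelanA above, and B16F10 over B16F0 below. Above, all members but Rpl24 are called higher and Rps27l and Rpl22l1 stand apart on the right, and below Rpl36a stands apart on the right and the sparsely counted Rps10 on the left. Some members are named on the axis.

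Genes tied to the ribosome but outside the naming rule were counted in the same way. Beside the counts of these lists, 23.4% to 25.5% of all tested genes were higher and 24.7% to 25.3% lower with SX-682. Of 5 ribosomal proteins with other names, 3 were higher in each line. Rack1 and Fau rose by 0.46 and 0.30 in MelanA, 0.20 and 0.14 in B16F0 and 0.43 and 0.39 in B16F10, while Rpl36al had 0.32, 0.10 and 0.46 and Rps27rt 0.31, 0.29 and 0.51, with SE from 0.22 to 0.41 and levels of 0.3638 to 9.301 CPM, and passed in no line. Of 22 messengers known to carry a TOP motif, 3 of them also in the list before, 19 were higher and 2 lower in MelanA, 16 and 3 in B16F0, and 18 and 3 in B16F10, with medians of 0.24, 0.24 and 0.37. The elongation factor Eef2 rose by 0.41, 0.36 and 0.55 and Eef1a1 by 0.31, 0.25 and 0.45. The splicing factor Hnrnpa1 and the histone chaperone Nap1l1 of the same list fell in each line, Hnrnpa1 by -0.44, -0.32 and -0.42.

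Factors that carry single ribosomal proteins or finish the subunits had no common direction. Of 17 tested, 5 were higher and 4 lower in MelanA, 6 and 3 in B16F0, and 6 and 7 in B16F10, with medians of 0.02, -0.003 and -0.07. Heatr3, which brings Rpl5 and Rpl11 into the nucleus, went from 65.8 and 67.78 to 40.43 and 42.32 CPM in MelanA, from 64.14 and 64.24 to 35.71 and 32.51 in B16F0, and from 134.5 and 127.9 to 67.18 and 65.79 in B16F10. That was a fall in each line, of -0.69, -0.91 and -0.98. Grwd1, the chaperone of Rpl3, fell by -0.29, -0.35 and -0.88, while Efl1, which releases a late factor from the large subunit, rose by 0.44, 0.40 and 0.38.

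The proteins of the mitochondrial ribosome, which is a separate machine for the mitochondrial genome, had medians close to 0. Of 77 genes, 24 were higher and 29 lower in MelanA, 17 and 31 in B16F0, and 24 and 26 in B16F10, with medians of -0.01, -0.05 and 0.03. Mrpl18 fell furthest in each line, by -1.16, -1.15 and -1.26. In the untreated lines 50 of the 77 were higher and 14 lower in B16 than in MelanA, where 33.7% of all tested genes were higher and 42.4% lower. The median was 0.22 beside 0.64 for the cytosolic members.

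Members with and without a pyrimidine run around the annotated start had similar median responses. The 25 tested members with a run of at least 8 had medians of 0.26, 0.23 and 0.37 in MelanA, B16F0 and B16F10, and the 35 with a shorter run had 0.28, 0.20 and 0.37. Between untreated B16 and MelanA the medians were 0.67 and 0.61. This split was made after the responses were known and is given as a description. Of the listed TOP messengers with a promoter, 6 of 15 carried such a run in this window. The split therefore cannot tell messengers with a TOP motif from those without, and the part of the motif was not tested.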

How the data were processed

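RNA of MelanA, B16F0 and B16F10 cells, untreated or with SX-682, was sequenced in 12 libraries, 2 per group, and the authors deposited 1 table of raw counts per gene with a gene length in bases and mm10 coordinates. The submitters' processing notes name cutadapt, STAR and DESeq2. The counting program, the strand setting and the treatment of reads that fit several genes are not given in the sources used here. Nothing says that the 2 libraries of a group came from separate cultures, so p-values measure the spread between libraries, which may be technical. Replicates differed by more than sampling noise (chi-square per gene from 2.73 to 5.05), and each library lay closest to its own replicate.

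The members and the lists were chosen with earlier results of these data known. Counts were fitted over all genes with edgeR 4.0.16 (R 4.3.3) as a quasi-likelihood model of 6 groups with TMM scaling, after filterByExpr had kept 18338 of 34513 genes; factors, SE and 95% intervals come from that fit (common coefficient of variation 2.78%). Adjusted p-values are Benjamini-Hochberg over all tested genes at a threshold of 0.05. With 2 libraries against 2, an exact permutation test cannot go below p = 0.333. All 83 members had the same coordinates and exon length in GENCODE M21, from which principal transcripts and 50-base words were taken, and promoters came from RefSeq. Named members were the 4 largest called rises and falls without overlap in each comparison (3 for differences of responses), the paralogue pairs, the P stalk, Rpl5, Rpl11, Rpsa, Rps6 and the 3 highest and lowest in CPM; Rpl7a, Rpl27, Rpl24 and Rpl13a were named after their values were seen, as were genes of the other lists beyond the largest rise and fall. Some members that the rule picked are not reported here. Rps4l was annotated as a pseudogene and is no member. Alternatives covered scaling, filters, DESeq2 1.42.0, a length trend, pseudogene counts, thinning, the replicate number and leaving out each library. Same-numbered libraries did not deviate together (correlations from 0.0011 to 0.022).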

Additional observations from a re-analysis of the deposited data

Results flagged for a closer look

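Responses to SX-682 that differed between lines by a test of the difference itself (edgeR, adjusted p under 0.05) were found for 11 named members in 12 comparisons. Between the mean of the B16 lines and MelanA, the response of Rpl23a was higher by 0.18 on the log2 scale, that of Rpl21 by 0.16 and that of Rpl30 by 0.13, and it was lower for Rpl22l1 (-0.39), Rpl7l1 (-0.3) and Rpl10 (-0.14). The call for Rpl30 was lost without the first untreated MelanA library (0.07, adjusted p = 0.159) and without the second treated MelanA library (0.10, adjusted p = 0.0729).

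Between B16F10 and B16F0 the response was higher for Rps14 (0.29), Rpl17 (0.28) and Rpl41 (0.28) and lower for Rps10 (-1.14), Rpl7l1 (-0.36) and Rps27l (-0.32). Rps27l changed by 0.10 in B16F0 and by -0.22 in B16F10, and the call in B16F0 was lost with a length offset (0.076, adjusted p = 0.084), with the length offset and the replicate block (0.075, adjusted p = 0.0616) and without the second treated library (0.069, adjusted p = 0.101). The value for Rps10 rested on 62 to 336 counts per library in the B16 lines and was -0.887 (adjusted p = 0.0559) without the first untreated B16F10 library, and with its pseudogene rows added it was -0.061 (adjusted p = 0.801).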

How the results depend on the processing

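The rise of the members with SX-682 and their higher level in untreated B16 kept their direction under the alternatives run (medians 0.244 to 0.304 in MelanA, 0.179 to 0.268 in B16F0, 0.311 to 0.406 in B16F10 and 0.503 to 0.762 for B16 against MelanA): over 28 settings, of 384 recomputed counts of members, 361 were within 1.5 times the reported one. Part of this tally could hardly move, since the count of members lower in untreated B16 than in MelanA was 0 in every setting. The counts that moved by over 1.5 times were as follows, and their cause was not tested beyond what the alternative itself sets. Requiring a log2 fold change of at least 0.2 gave 1 lower in MelanA, 46 higher in B16F0, 16 higher and 16 lower between B16F10 and B16F0, 0 higher and 2 lower for the response of B16 against MelanA, and 16 higher for that of B16F10 against B16F0. The 16 members whose response was higher in B16 than in MelanA became 9 with library totals alone, 9 with DESeq2 and 6 at an adjusted p under 0.01. Upper quartile scaling left 1 member lower in MelanA, where Rps27l had -0.08 (adjusted p = 0.0525). The 60 members with a larger response in B16F10 than in B16F0 became 26 with a length offset and 31 with the length offset and the replicate block. With library totals alone Rpl22 (-0.04) and Rps27 (-0.016) turned in untreated B16 against MelanA.

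Leaving out each library in turn gave 1 to 2 members lower in MelanA, and 7 to 21 higher and 12 to 22 lower for the response of B16 against MelanA. Of the higher ones 7 remained as a count without the second treated MelanA library, 8 without the second untreated B16F10 library, 9 without the first untreated or the first treated MelanA library, and 10 without the second treated B16F0, the first untreated B16F10 or the second treated B16F10 library, and the lower ones were 22 without the second treated B16F0 library. The replicate number as a block gave 76, 76 and 76 members higher in the 3 lines and changed no count by over 1.5 times. With DESeq2 the calls for Rpl23a and Rpl30 were lost while their values stayed at 0.177 and 0.124 (adjusted p = 0.0756 and 0.0952). The lowest counts were those of Rpl24, Rps10 and the 3 untested paralogues.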
